A study of Rattus norvegicus with 6 samples.

Results

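Genes of cell proliferation and of the cell cycle were followed in the vestibular sensory epithelium of rats exposed to 3,3'-iminodipropionitrile (IDPN), a nitrile toxic to the hair cells (HC) of the inner ear. The group consisted of 10 genes taken by symbol from the 32883 genes of the table: Mki67, Top2a, Cdk1, Ccnb1, Ccna2, Pcna, Mcm2, Ccnd1, Ccnd2 and Cdkn1b. Each of the 10 symbols matched a row. The question was whether transcripts of dividing cells rise in an epithelium whose HC are under toxic stress, where supporting cells might re-enter the cycle. The comparison was between 3 control rats, whose drinking water held 0 mM IDPN, and 3 rats that drank water with 20 mM IDPN over 4 weeks (IDPN-4wk). All were adult male Long-Evans rats with no genetic change named in the labels, and each library came from the pooled utricles and cristae of both ears of 1 animal. The libraries therefore mix HC, supporting cells and the other cells of the dissected epithelium, and in such bulk samples fewer cells of a type and less RNA per cell cannot be told apart.

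A resting cell enters the cycle through G1, when D-type cyclins with CDK4 and CDK6 begin to inactivate the retinoblastoma proteins, which releases the E2F factors that switch on genes of DNA synthesis. Later, cyclins A and B with CDK1 drive the cell through G2 and mitosis, and inhibitors such as p27Kip1 hold the kinases back. In the mammalian inner ear, supporting cells leave the cycle during development and p27Kip1 is known to help keep them out of it, whereas in birds and fish they divide again after HC loss.

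Many genes of G2 and mitosis are held silent in resting cells through a promoter element called CHR, often a short distance from a CCAAT box, and genes of DNA synthesis often carry E2F sites. Promoter sequences of RefSeq (build GRCr8) were found for 7 of the 10 genes. They were searched on both strands from 250 bases before to 50 bases after the gene start for CHR (TTTGAA), for the CCAAT box (CCAAT) and for E2F sites (TTTGGCGC, TTTCGCGC or TTCCCGCC). A match is only a match of letters. CHR letters were found in 4 of the 7 promoters (Mki67, Top2a, Cdk1 and Mcm2), against 18.1% of the 27457 promoters in the reference table. CCAAT letters were found in 6 of the 7, against 37.7% of all promoters, and E2F letters in 2 (Cdk1 and Mcm2), against 2.83%. The 130 bases just before the start are shown for these 4 genes, because they place the mitotic genes and the replication gene side by side, and for Cdca8 and Smc4, a pair of mitotic genes outside the group whose transcripts were upregulated. Each is written along the strand of its gene and ends at the base before the start: Mki67 at chr1:199952594-199952723 (minus strand), Top2a at chr10:84473094-84473223 (minus strand), Cdk1 at chr20:19265163-19265292 (plus strand), Mcm2 at chr4:122918095-122918224 (minus strand), Cdca8 at chr5:142483200-142483329 (minus strand) and Smc4 at chr2:155550132-155550261 (plus strand). Capitals mark the motifs in either orientation. In Mki67 and Cdca8 a CHR overlaps a CCAAT box read on the other strand by its last base, and in Mcm2 the capitals are an E2F site overlapping its own reverse complement. The CHR of Mcm2, the E2F letters of Cdk1 and the CCAAT letters of Smc4 lie outside the stretch shown.
Mki67: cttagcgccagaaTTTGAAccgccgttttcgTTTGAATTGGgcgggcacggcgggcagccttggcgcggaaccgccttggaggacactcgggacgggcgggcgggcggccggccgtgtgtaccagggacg
Top2a: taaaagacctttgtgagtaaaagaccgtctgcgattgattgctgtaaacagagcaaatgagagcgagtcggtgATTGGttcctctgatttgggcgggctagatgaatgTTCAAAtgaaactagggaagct
Cdk1: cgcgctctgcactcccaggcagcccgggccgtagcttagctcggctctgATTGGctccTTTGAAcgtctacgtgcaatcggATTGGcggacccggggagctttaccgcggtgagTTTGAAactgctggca
Mcm2: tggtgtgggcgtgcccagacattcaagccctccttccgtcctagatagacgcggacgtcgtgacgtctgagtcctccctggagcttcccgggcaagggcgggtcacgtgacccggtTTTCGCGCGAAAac
Cdca8: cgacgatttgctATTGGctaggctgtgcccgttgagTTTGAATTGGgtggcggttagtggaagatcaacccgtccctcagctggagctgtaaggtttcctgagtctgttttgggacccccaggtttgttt
Smc4: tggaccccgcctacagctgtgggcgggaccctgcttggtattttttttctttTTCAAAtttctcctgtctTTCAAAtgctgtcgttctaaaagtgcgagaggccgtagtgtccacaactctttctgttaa

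Of the 10 genes, 8 had enough counts to be tested, and Ccnd2 was downregulated while no other gene of the group was called changed. Cyclin D2 transcripts fell to 0.574 of the control level, and the classical proliferation marker Mki67 differed little, with a 1.13-fold value in IDPN-4wk that did not pass the test. Top2a and Ccna2 were at the edge of detection and were left out of the test by the filter on low counts. A gene was called upregulated or downregulated where the adjusted p (Padj) of the edgeR quasi-likelihood test over all genes tested was under 0.05 and the fold change was over 1.5. Among all 14352 genes tested, 9.71% were called, 3.09% higher and 6.62% lower in IDPN-4wk, so 1 call among 8 genes was near the background. At an unadjusted p under 0.05 there was 1 gene higher, Ccnd1, and 1 lower, Ccnd2, where 15.6% of all genes tested were higher and 17.4% lower at that p, and DESeq2 also called Ccnd2 alone. The log2-Fold change was above 0 in 7 of the 8 genes, against 52.8% of all genes tested, and the 8 had a median of 0.17, beside a median of 0.02 over all genes tested. The groups did not overlap in 2 of the 8 genes, Pcna and Ccnd2, where 37.8% of all tested genes had groups that did not overlap.

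**Figure D1:**
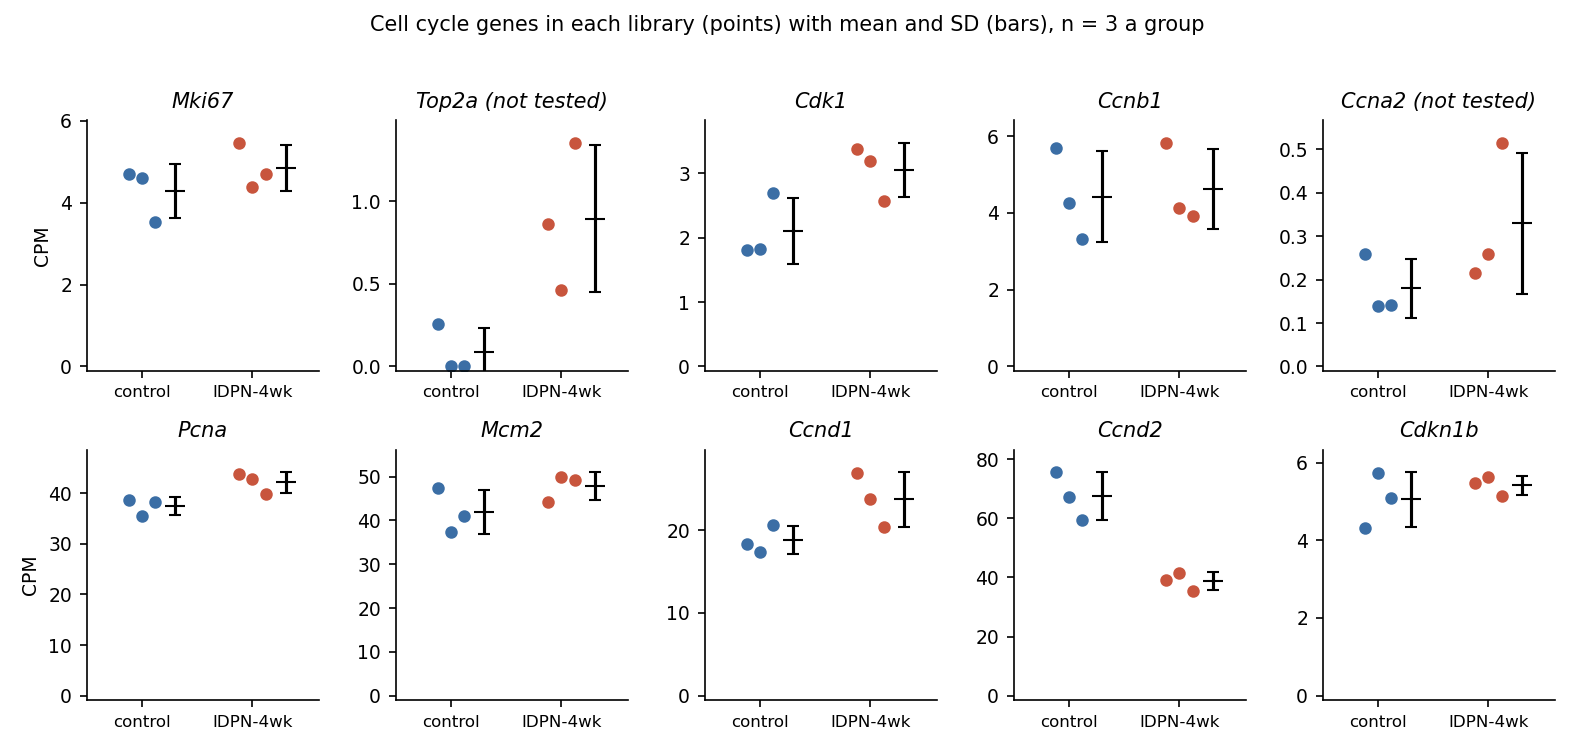
Level of each of the 10 genes in CPM (counts scaled to library size, on linear axes that differ between panels), with 1 point per library, blue for control and red for IDPN-4wk, and bars for the mean and SD of 3 libraries. The groups are separated for Ccnd2, which is lower in IDPN-4wk, and by less for Pcna and for Top2a, whose control values include 2 libraries at 0.

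The genes of mitosis had few counts in both groups. Mki67 (ENSRNOG00000028137) encodes Ki-67, a chromosome surface protein present in cycling cells and absent from resting ones. It had 73, 66 and 50 counts in the control libraries, or 4.71, 4.61 and 3.54 CPM, and 76, 85 and 73 counts in the IDPN-4wk libraries, or 5.46, 4.38 and 4.70 CPM. Transcripts were thus present in every library, controls included, and the groups overlapped. The means were 4.29 ± 0.651 CPM (SD, n = 3) for control against 4.85 ± 0.555 CPM (SD, n = 3) for IDPN-4wk, a log2-Fold change of 0.17 (SE 0.23, 95% interval from -0.34 to 0.69, Padj = 0.649 in edgeR). The interval covers a fall to 0.790 and a rise to 1.61 of the control level, so a change of moderate size in either direction was not detectable with this depth and number of animals.

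Top2a (ENSRNOG00000053047), which encodes topoisomerase II alpha, the enzyme that untangles replicated chromosomes, was hardly detected in control libraries. It had 4, 0 and 0 counts in control and 12, 9 and 21 counts in IDPN-4wk libraries. The control libraries thus held 2 zeros, which allow up to 3 counts each, and every IDPN-4wk library was above every control library. Without a filter on low counts, the log2-Fold change was 3.19 (SE 0.99, 95% interval from 1.10 to 5.28, Padj = 0.038 in edgeR), and with so few control counts the size of this value depends on the prior count of the fit. With a library left out, Top2a passed the usual filter in 4 of the 6 fits, through the IDPN-4wk libraries alone, so those fits were selected in part by the difference itself. The fit without control replicate 1 set it against 0 counts (Padj = 0.0175 in edgeR), and the others gave a Padj of 0.0397 without IDPN-4wk replicate 2, 0.109 without control replicate 2 and 0.110 without control replicate 3.

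Cdk1 (ENSRNOG00000000632), the kinase that triggers mitosis, had 28, 26 and 38 counts in control and 47, 62 and 40 counts in IDPN-4wk libraries. In CPM the lowest IDPN-4wk library, at 2.58, was just under the highest control library, at 2.69, so the groups overlapped. Its log2-Fold change of 0.54 (SE 0.30, 95% interval from -0.13 to 1.20, Padj = 0.247 in edgeR) was the highest among the 8 tested genes and did not pass the test. Cdk1 has 1 pseudogene entry in the reference gene table, as Mki67 and Mcm2 have, and reads shared with such copies would be divided between them by the counting.

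The cyclins that partner CDK1 and CDK2 late in the cycle did not pass the test or were barely detected. Ccnb1 (ENSRNOG00000058539), which encodes cyclin B1, the mitotic partner of CDK1, had 5.68, 4.26 and 3.33 CPM in control and 5.82, 4.13 and 3.93 CPM in IDPN-4wk libraries. Replicate 1 was the highest library of each group and the groups overlapped throughout, with a log2-Fold change of 0.06 (SE 0.27, Padj = 0.909 in edgeR). Ccna2 (ENSRNOG00000015423), which encodes cyclin A2, active in S phase and G2, had 4, 2 and 2 counts in control and 3, 5 and 8 counts in IDPN-4wk libraries. Most of these counts lay near the limit of 3 counts that a 0 allows, and without the filter the log2-Fold change was 0.83 (SE 0.90, Padj = 0.601 in edgeR).

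The S phase genes were detected at higher counts and with narrower intervals. Pcna (ENSRNOG00000021264) encodes the sliding clamp that holds DNA polymerase on the template, and also serves DNA repair. It was at 38.6, 35.4 and 38.2 CPM in control and at 43.7, 42.8 and 39.9 CPM in IDPN-4wk libraries. Every IDPN-4wk library was above every control library, by a small margin at the nearest pair. The means were 37.4 ± 1.73 CPM (SD, n = 3) and 42.1 ± 2.02 CPM (SD, n = 3), a log2-Fold change of 0.17 (SE 0.09, 95% interval from -0.03 to 0.37, Padj = 0.212 in edgeR). The upper bound is a 1.29-fold level, under the 1.5-fold threshold. Pcna has 3 pseudogene entries in the reference gene table, so its counts are less certain than those of genes without copies.

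Mcm2 (ENSRNOG00000016316), a subunit of the MCM helicase that is loaded on replication origins in G1, had 733, 536 and 581 counts in control and 614, 970 and 766 counts in IDPN-4wk libraries. In CPM, control replicate 1, at 47.3, was above IDPN-4wk replicate 1, at 44.1, and the groups overlapped. The log2-Fold change was 0.19 (SE 0.10, 95% interval from -0.04 to 0.42, Padj = 0.238 in edgeR), with an upper bound at a 1.34-fold level. For both S phase genes, then, the 95% interval stayed within the 1.5-fold threshold in either direction.

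Among the G1 cyclins, Ccnd2 fell and Ccnd1 did not pass the test. Ccnd2 (ENSRNOG00000057710) encodes cyclin D2, an activator of CDK4 and CDK6. It had 1171, 963 and 839 counts in control and 542, 806 and 551 counts in IDPN-4wk libraries, or 75.6, 67.3 and 59.4 CPM against 39.0, 41.6 and 35.5 CPM. The lowest control library was well above the highest IDPN-4wk library. The means were 67.4 ± 8.12 CPM (SD, n = 3) and 38.7 ± 3.06 CPM (SD, n = 3), and Ccnd2 was downregulated with a log2-Fold change of -0.80 (SE 0.11, 95% interval from -1.03 to -0.57, Padj = 0.000513 in edgeR). The call was kept when each of the 6 libraries was left out, with log2-Fold changes from -0.89 to -0.71. A test against the 1.5-fold threshold itself (glmTreat of edgeR) did not pass (Padj = 0.179), and the bound of the interval nearest to 0 falls just short of that threshold.

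Ccnd1 (ENSRNOG00000020918), which encodes cyclin D1, had higher values in IDPN-4wk that did not pass the adjusted test. It had 283, 249 and 292 counts in control and 375, 462 and 316 counts in IDPN-4wk libraries. In CPM, IDPN-4wk replicate 3, at 20.3, lay just under control replicate 3, at 20.7, and the other IDPN-4wk libraries were above all controls. The log2-Fold change was 0.34 (SE 0.13, 95% interval from 0.04 to 0.63, Padj = 0.109 in edgeR). The remaining D-type cyclin, Ccnd3, chosen after its values were seen, was at 131 ± 12.9 CPM (SD, n = 3) for control against 129 ± 5.27 CPM (SD, n = 3) for IDPN-4wk, with a log2-Fold change of -0.03 (SE 0.08, Padj = 0.855 in edgeR).

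The balance of Ccnd1 to Ccnd2 within each library, a measure also chosen after the values were seen, needs no scaling between libraries. The ratio of their CPM was 0.242, 0.259 and 0.348 in control and 0.692, 0.573 and 0.574 in IDPN-4wk libraries. All IDPN-4wk ratios were above all control ratios, with means of 0.283 ± 0.0572 (SD, n = 3) and 0.613 ± 0.0684 (SD, n = 3). CPM are not corrected for transcript length, so only the shift of the ratio can be read and not which cyclin was the more abundant. The summed CPM of the D-type cyclins Ccnd1, Ccnd2 and Ccnd3 were 217 ± 17.4 (SD, n = 3) for control against 191 ± 3.05 (SD, n = 3) for IDPN-4wk.

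**Figure D2:**
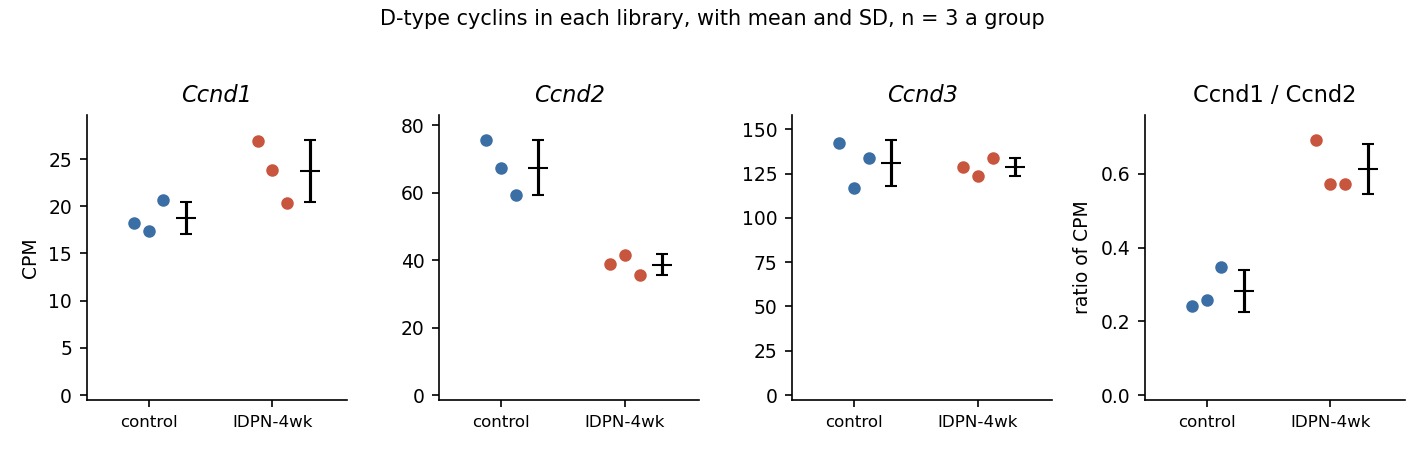
CPM of the D-type cyclins and, on the right, the ratio of Ccnd1 to Ccnd2 CPM in each library, blue for control and red for IDPN-4wk, with bars for the mean and SD of 3 libraries; all axes are linear. Ccnd2 is lower in every IDPN-4wk library, Ccnd1 and Ccnd3 overlap between the groups, and the ratio is above 0.57 in every IDPN-4wk library and under 0.35 in every control.

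Cdkn1b (ENSRNOG00000007249) encodes p27Kip1, the inhibitor that keeps supporting cells of the inner ear out of the cycle. It had 67, 82 and 72 counts in control and 76, 109 and 80 counts in IDPN-4wk libraries, or 4.33, 5.73 and 5.10 CPM against 5.46, 5.62 and 5.15 CPM. The IDPN-4wk libraries lay inside the range of the controls. The log2-Fold change was 0.10 (SE 0.21, 95% interval from -0.37 to 0.57, Padj = 0.777 in edgeR), which covers levels from 0.776 to 1.48 of the control level. Levels of p27Kip1 are known to be set largely by protein degradation, which these data do not measure.

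The markers of other cells moved in part alongside Ccnd2. All 10 HC markers tested had a log2-Fold change below 0 and 7 were downregulated, and their summed level was from 2153 to 2290 CPM in control and from 1057 to 1393 CPM in IDPN-4wk libraries. Of 12 supporting cell markers 3 were downregulated (Otog, Tectb and Gjb6), 5 were lower by adjusted p, the median log2-Fold change was -0.33, and they had summed levels from 10131 to 11212 CPM in control and from 5713 to 6976 CPM in IDPN-4wk libraries. Most of that difference lay in Otog, with means of 6262 and 3199 CPM, and Gjb6, with means of 1622 and 891 CPM, and the 9 markers without a call summed to 2334 ± 49.7 CPM (SD, n = 3) for control against 1989 ± 56.1 CPM (SD, n = 3) for IDPN-4wk. Sox9, Hes1 and Aqp4 had log2-Fold changes above 0 with no call. The supporting cell factors Sox2 and Sox9 were not called, with log2-Fold changes of -0.27 (Padj = 0.347) and 0.24 (Padj = 0.054) in edgeR. Schwann cell markers summed to 8489 to 10730 CPM in control and 5800 to 8698 CPM in IDPN-4wk libraries, with 1 of 8 downregulated, 5 of 8 lower by adjusted p and a median of -0.49 on the log2 scale. Red blood cell markers went the other way, with 2 of 4 rows upregulated and sums from 262 to 313 CPM in control and from 305 to 622 CPM in IDPN-4wk libraries. Both calls, Hbb and a Hba-a2 row, held in 1 of the 6 fits with a library left out, the one without IDPN-4wk replicate 3, with a Padj of up to 0.115 and 0.0962 in edgeR in the others. Macrophage markers summed to 269 to 341 CPM in control and 206 to 368 CPM in IDPN-4wk libraries, with 1 of 10 upregulated. The lymphocyte and granulocyte markers were near 0, with none tested, Cd79a (read from the row of an older symbol) at 0 counts in all libraries and sums of at most 2.62 CPM. Stroma markers had 1 upregulated and 1 downregulated of 8, endothelial markers 1 downregulated of 5, with sums from 350 to 474 CPM in control and from 307 to 333 CPM in IDPN-4wk libraries, and markers of dark cells and melanocytes 1 downregulated of 6, with sums from 603 to 771 CPM in control and from 485 to 518 CPM in IDPN-4wk libraries. Of 7 neuronal markers 2 were called in each direction and 4 were lower by adjusted p, the median being -0.43 on the log2 scale, with sums from 95.1 to 105 CPM in control and from 65.5 to 69.7 CPM in IDPN-4wk libraries. Over all genes tested, 3.09% were called higher and 6.62% lower in IDPN-4wk. A single call in a list of 5 to 10 markers was thus near the background. Genes lower by adjusted p alone were not counted over all genes tested, so those marker counts have no background by direction. In both directions, 2778 of the 14352 genes tested passed the adjusted p. Of the 22 marker rows called, 15 kept the call when any library was left out. Besides the red blood cell rows, the HC marker Myo7a was lost without control replicate 2, the macrophage marker C1qb without control replicate 3 or IDPN-4wk replicate 1, and the Schwann cell marker Pmp22 without control replicates 1 or 3 or IDPN-4wk replicate 2. The endothelial marker Flt1 was lost without control replicate 2 or IDPN-4wk replicates 1 or 2, and the neuronal marker Nefh without control replicates 2 or 3 or IDPN-4wk replicate 2. The part of these cells in the values of the cell cycle genes was not tested.

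Around the 10 genes, 8 lists of cell cycle genes were read from the same fit. Of 152 genes listed, 149 had a row and 125 were tested. Of these, 11 (8.80%) were upregulated and 4 (3.20%) downregulated, where the background was 3.09% and 6.62%. The filter asked for at least 0.664 CPM in as many libraries as a group holds, and 4 of the 11 upregulated genes (Kif23, Chaf1b, Cdc25c and Tk1) reached it in all IDPN-4wk libraries and not in all controls. Such genes were tested only because of their IDPN-4wk levels, so these 4 calls were selected in part by the difference itself. Of the 110 genes past the filter in both groups, 7 (6.36%) were upregulated and 4 (3.64%) downregulated, where 2.91% and 6.26% of all such genes were. Over all 125 the median log2-Fold change was 0.16, and the groups did not overlap for 44 genes (35.2%), where the background was 37.8%. Summed over all 8 lists, the level ran from 5169 to 5393 CPM in control and from 4874 to 5013 CPM in IDPN-4wk libraries. It was thus lower in IDPN-4wk, with no overlap. Without the genes that degrade cyclins and p27Kip1, whose sum is given with their list, the summed level of the other 137 genes ran from 2791 to 2948 CPM in control and from 2886 to 2945 CPM in IDPN-4wk libraries, and overlapped between the groups. The number upregulated was 7 when control replicate 2 or IDPN-4wk replicate 2 was left out, and the number downregulated was 2 when control replicate 2 or IDPN-4wk replicate 1 was left out.

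**Figure D3:**
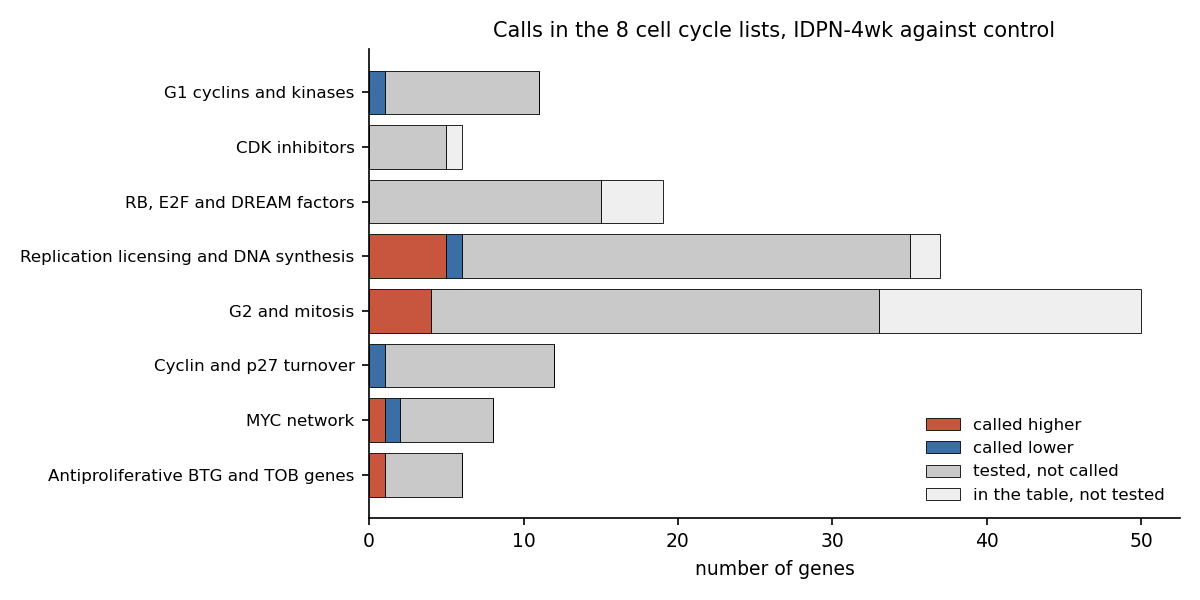
Number of genes in each of the 8 cell cycle lists that were called higher, called lower, tested without a call, or present in the table and not tested for lack of counts, in IDPN-4wk against control. Replication and mitosis genes hold 9 of the 11 genes called higher, of which 4 were tested only through their IDPN-4wk levels, and the list of G2 and mitosis has the most genes that could not be tested, 17 of 50.

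Among genes of G2 and mitosis, 4 of 33 tested were upregulated (12.1%, against 3.09% of all genes tested) and none downregulated (against 6.62%). At an unadjusted p under 0.05, 10 were higher (30.3%, against 15.6% of all genes tested) and none lower (against 17.4%). Past the filter in both groups were 27 genes, of which 2 were upregulated, Smc4 and Cdca8 (7.41%, against 2.91% of all such genes). Of the 27, 7 were higher at an unadjusted p under 0.05 (25.9%, against 15.8% of all such genes). Over all 33 genes DESeq2 called 4 higher and none lower, and Kif23, tested through its IDPN-4wk levels alone, was among the 4. Kif23, a kinesin of the midzone that cells need to complete division, rose from 5, 10 and 5 counts in control to 39, 45 and 21 counts in IDPN-4wk libraries, a log2-Fold change of 2.22 (SE 0.47, Padj = 0.00823 in edgeR), and was tested through its IDPN-4wk levels alone. Smc4, a core subunit of the condensins that compact mitotic chromosomes, rose from a mean of 10.2 ± 0.779 CPM (SD, n = 3) to a mean of 16.4 ± 1.29 CPM (SD, n = 3), a log2-Fold change of 0.69 (SE 0.14, Padj = 0.00636 in edgeR). Both calls were kept when any library was left out, and for both genes every IDPN-4wk library was above every control.

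Cdca8, which encodes borealin of the chromosomal passenger complex, rose from 40, 23 and 16 counts to 52, 118 and 65 counts (log2-Fold change 1.39, SE 0.35, Padj = 0.0181 in edgeR). Its call was lost without control replicate 2 (Padj = 0.0639), control replicate 3 (Padj = 0.0647) or IDPN-4wk replicate 2 (Padj = 0.0825). Cdc25c, a phosphatase that activates CDK1, rose from 7, 4 and 9 counts to 19, 32 and 17 counts (log2-Fold change 1.58, SE 0.46, Padj = 0.0349 in edgeR), and was also tested through its IDPN-4wk levels alone. That call held in 1 of the 6 fits with a library left out, the one without IDPN-4wk replicate 3 (Padj from 0.042 to 0.127 over the 6), and DESeq2 did not make it (Padj = 0.0679). In 28 of the 33 genes the log2-Fold change was above 0, and in 24 of the 27 past the filter in both groups, where 52.8% and 53.0% of all such genes were. The median was 0.38 over either set, and some of the remaining genes passed the filter through their IDPN-4wk levels alone. The 17 genes of the list with too few counts to test summed to 3.58 ± 0.512 CPM (SD, n = 3) for control against 8.04 ± 1.18 CPM (SD, n = 3) for IDPN-4wk, and 14 of them had the higher mean in IDPN-4wk. The share of all untested genes with the higher mean in IDPN-4wk was not taken, so this count has no background and cannot be judged. The summed level of the whole list was 212 ± 11.7 CPM (SD, n = 3) for control against 246 ± 4.10 CPM (SD, n = 3) for IDPN-4wk, with no overlap between the groups. Gene by gene, the groups did not overlap for 12 of the 33 genes tested (36.4%), where the background was 37.8%. The master regulator of this programme, Foxm1, chosen after its values were seen, overlapped between the groups (log2-Fold change -0.34, SE 0.34, Padj = 0.525 in edgeR). CHR letters were found in 33 of the 44 promoters of this list present in the reference table (75.0%), and E2F letters in 2 of them (4.55%).

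Genes of replication licensing and DNA synthesis moved in both directions, with 5 of 35 upregulated (14.3%, against 3.09% of all genes tested) and 1 downregulated (2.86%, against 6.62%), and a median log2-Fold change of 0.14. Of the 31 past the filter in both groups, 3 were upregulated (9.68%, against 2.91% of all such genes) and 1 downregulated (3.23%, against 6.26%). Chaf1b, a subunit of the chromatin assembly factor that packs newly made DNA, rose from 9, 8 and 6 counts to 29, 38 and 36 counts (log2-Fold change 2.00, SE 0.38, Padj = 0.00446 in edgeR). The call was kept when any library was left out, and the gene was tested through its IDPN-4wk levels alone. Cdt1, which loads the MCM helicase, rose from a mean of 2.88 ± 0.357 CPM (SD, n = 3) to a mean of 5.92 ± 0.972 CPM (SD, n = 3), at a log2-Fold change of 1.04 (SE 0.24, Padj = 0.0131 in edgeR), and the call was lost without IDPN-4wk replicate 2 (Padj = 0.0607). Gmnn, which encodes geminin, the inhibitor of Cdt1, rose in the same libraries from a mean of 1.82 ± 0.183 CPM (SD, n = 3) to a mean of 4.23 ± 0.924 CPM (SD, n = 3), at a log2-Fold change of 1.21 (SE 0.29, Padj = 0.0145 in edgeR). The call for Gmnn was lost without control replicate 2 (Padj = 0.0542), IDPN-4wk replicate 1 (Padj = 0.0633) or IDPN-4wk replicate 2 (Padj = 0.0502).

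Tk1, thymidine kinase of the S phase, rose from 11, 4 and 17 counts to 35, 65 and 30 counts (log2-Fold change 1.83, SE 0.48, Padj = 0.0217 in edgeR), and was likewise tested through its IDPN-4wk levels alone. Its call was lost without control replicate 1 (Padj = 0.0620), control replicate 2 (Padj = 0.0645), IDPN-4wk replicate 1 (Padj = 0.0622) or IDPN-4wk replicate 2 (Padj = 0.0889). Mcm3, a neighbour of Mcm2 in the helicase ring and named after its values were seen, rose from 142, 127 and 110 counts to 140, 289 and 218 counts, at a log2-Fold change of 0.60 (SE 0.18, Padj = 0.0418 in edgeR) and kept its call only without IDPN-4wk replicate 1 (Padj from 0.0207 to 0.147 over the 6). Cdc6, which recruits Cdt1 and the MCM helicase to origins, fell from 50, 74 and 58 counts to 22, 45 and 30 counts (log2-Fold change -1.09, SE 0.30, Padj = 0.0275 in edgeR). The call for Cdc6 was lost without control replicate 2 (Padj = 0.111), control replicate 3 (Padj = 0.0700), IDPN-4wk replicate 1 (Padj = 0.0886) or IDPN-4wk replicate 3 (Padj = 0.0538). The licensing factors Cdt1 and Cdc6 thus went in opposite directions, and the summed level of the list, 799 ± 40.3 CPM (SD, n = 3) for control against 809 ± 11.2 CPM (SD, n = 3) for IDPN-4wk, overlapped between the groups. E2F letters were found in 18 of the 31 promoters of this list (58.1%), and CHR letters in 2 (6.45%).

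**Figure D4:**
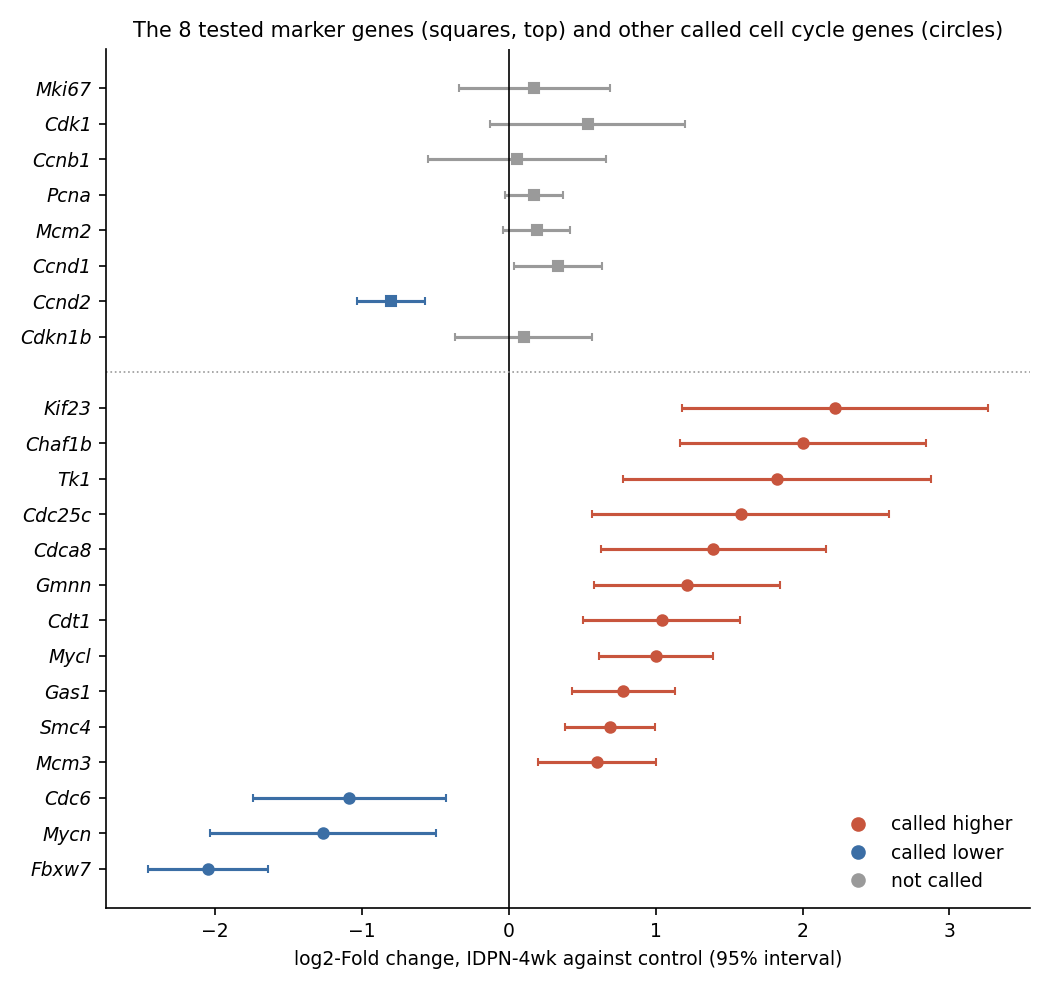
The log2-Fold change of IDPN-4wk against control with its 95% interval for the 8 tested genes of the group (squares, above the dotted line) and for the 14 other cell cycle genes called changed (circles), red for called higher, blue for called lower and grey for not called. Ccnd2 is the only square off the grey, at -0.80, while the circles run from -2.05 for Fbxw7 to 2.22 for Kif23 and, being chosen by their calls, lie away from 0. Kif23, Chaf1b, Tk1 and Cdc25c were tested only through their IDPN-4wk levels.

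Among the cyclins and kinases of G1, Ccnd2 was the only call of 11, downregulated (9.09%, against 6.62% of all genes tested). The median log2-Fold change was 0.21, and 4 genes were higher and 1 lower, Ccnd2, at an unadjusted p under 0.05, where 15.6% and 17.4% of all genes tested were. The summed levels were 390 ± 17.3 CPM (SD, n = 3) for control against 388 ± 2.94 CPM (SD, n = 3) for IDPN-4wk. Of genes named after their values were seen, Cdk2, the kinase of the transition to S phase, was 1.37-fold higher, past the adjusted test and under the fold threshold (Padj = 0.0193 in edgeR). Ccne1, which encodes its partner cyclin E1, had 15, 7 and 8 counts in control and 20, 32 and 29 counts in IDPN-4wk libraries and did not pass (log2-Fold change 1.27, SE 0.41, Padj = 0.0522 in edgeR), having been tested through its IDPN-4wk levels alone.

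None of 5 tested CDK inhibitors was called, with 2 higher and none lower at an unadjusted p under 0.05 (background as for the G1 genes), and DESeq2 called 1 higher, Cdkn1a. The values named here were chosen after they were seen. Cdkn1a, the p53 target p21, was at 5.94, 13.4 and 9.41 CPM in control and at 17.0, 19.6 and 11.3 CPM in IDPN-4wk libraries (log2-Fold change 0.74, SE 0.28, Padj = 0.0883 in edgeR). It was called higher without control replicate 2 (Padj = 0.0335 in edgeR), without IDPN-4wk replicate 3 (Padj = 0.0340) and with library size alone as the scaling (Padj = 0.0430), and its Padj was from 0.192 to 0.263 without any of the other libraries. Cdkn2b, which encodes p15Ink4b, had a log2-Fold change of 0.93 (SE 0.36, Padj = 0.0940 in edgeR), and Cdkn2a had 0 counts in all 6 libraries. None of 15 genes of the RB, E2F and DREAM factors was called by edgeR or by DESeq2, with 2 higher and 1 lower at an unadjusted p under 0.05, against the same background, and a median log2-Fold change of 0.22. The 2 higher genes, named after their values were seen, passed the adjusted test under the fold threshold. They were E2f6, an E2F that represses its targets, at 1.29-fold (Padj = 0.0167 in edgeR), and E2f4, the E2F that partners the pocket proteins of resting cells, at 1.34-fold (Padj = 0.0367 in edgeR).

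**Figure D5:**
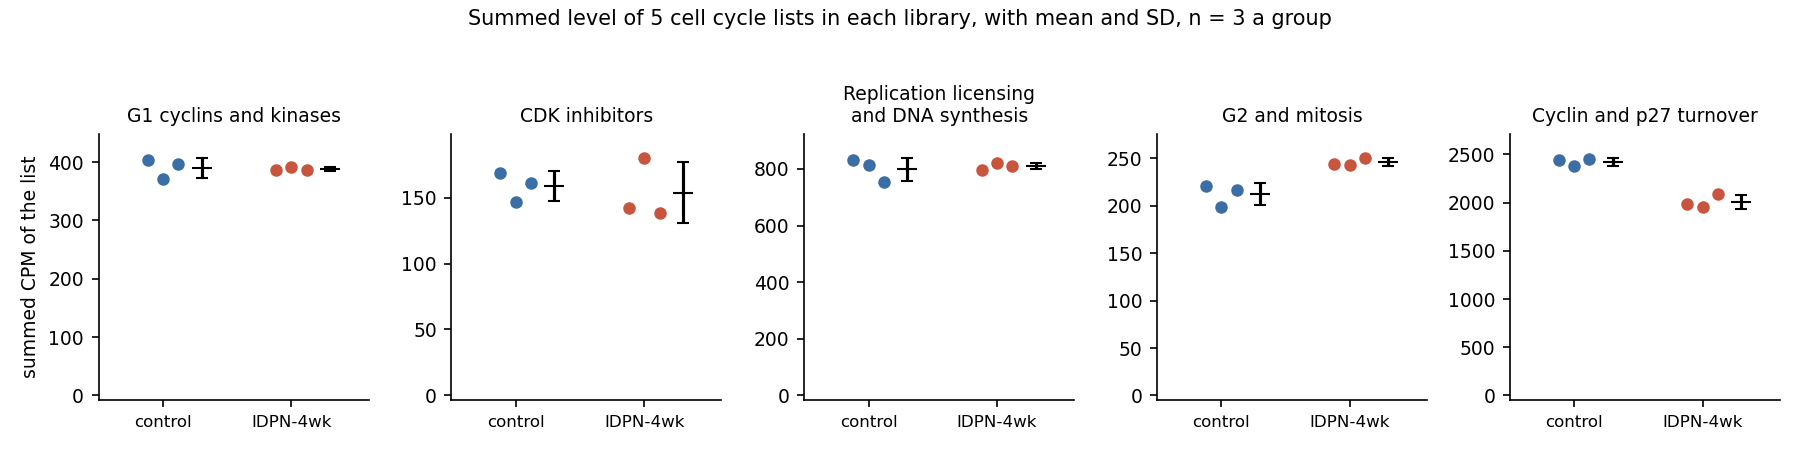
Summed CPM of the genes in 5 cell cycle lists in each library, on linear axes that include 0, blue for control and red for IDPN-4wk, with bars for the mean and SD of 3 libraries. G2 and mitosis genes sum to 243 CPM or more in every IDPN-4wk library and to 221 CPM or less in every control, the genes that degrade cyclins and p27Kip1 are lower in every IDPN-4wk library, and the other 3 lists overlap between the groups.

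Of the genes that degrade cyclins and p27Kip1, 1 of 12 was called, lower, and the median log2-Fold change was 0.04. That share, 8.33%, was near the 6.62% of all genes tested that were called lower. Their summed level was lower, at 2424 ± 40.8 CPM (SD, n = 3) for control against 2008 ± 69.6 CPM (SD, n = 3) for IDPN-4wk, with no overlap, and Skp1, a core subunit of the SCF ligase whose CPM make up most of the sum and which was named after its values were seen, was lower by adjusted p and under the fold threshold (log2-Fold change -0.32, SE 0.07, Padj = 0.00737 in edgeR). Fbxw7, the substrate receptor that marks cyclin E and MYC for degradation, was downregulated from 33.6, 29.2 and 33.7 CPM in control to 7.26, 5.88 and 10.3 CPM in IDPN-4wk libraries (log2-Fold change -2.05, SE 0.18, Padj = 5.44e-05 in edgeR). The study counts Fbxw7 among the genes selective for HC, of whose 10 markers tested 7 were downregulated, and the part of HC in this value was not tested. Skp2, the receptor that targets p27Kip1 itself, chosen after its values were seen, had a log2-Fold change of 0.21 (SE 0.26, Padj = 0.604 in edgeR). In the MYC network 1 gene rose and 1 fell of 8 tested (12.5% each, against 3.09% and 6.62% of all genes tested), at a median of 0.12 on the log2 scale. Single calls in lists this short were near the background. Mycl, a MYC family factor, was upregulated from a mean of 6.23 ± 0.684 CPM (SD, n = 3) to a mean of 12.5 ± 1.55 CPM (SD, n = 3), at a log2-Fold change of 1.00 (SE 0.18, Padj = 0.00281 in edgeR). Mycn, its relative, was downregulated from 41, 46 and 31 counts to 14, 18 and 22 counts (log2-Fold change -1.26, SE 0.35, Padj = 0.0280 in edgeR), a call lost without either of control replicates 1 and 2 or IDPN-4wk replicates 1 and 2 (Padj from 0.0704 to 0.105). Of 6 antiproliferative genes of the BTG and TOB list, at a median of 0.07 on the log2 scale, 1 was called (16.7%, against 3.09% of all genes called higher). Gas1, a membrane protein first known from growth arrest, was upregulated from a mean of 23.0 ± 4.78 CPM (SD, n = 3) to a mean of 39.5 ± 6.43 CPM (SD, n = 3), at a log2-Fold change of 0.78 (SE 0.16, Padj = 0.00674 in edgeR), a call kept when any library was left out.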

How the data were processed

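RNA was obtained from the vestibular epithelium of 3 control and 3 IDPN-4wk rats. Per the labels and the methods of the study, the authors made non-stranded SMART-seq2 libraries, mapped paired-end reads with STAR 2.5.3a to Rnor6.0 and estimated counts with RSEM 1.3.0 (both versions from the submitters' processing notes). The deposited values are expected counts per gene, were whole numbers as deposited, and were used as they stood. Since strand was not recorded, a gene and its antisense neighbour share reads, and RSEM divides reads shared with pseudogenes among the copies. Totals ranged from 13358678 to 18561991 counts, and the 3 counts that a 0 allows were from 0.155 to 0.216 CPM. Such limits cover counting error only.

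Genes were filtered (filterByExpr, minimum count 10, minimum total 15), scaled with TMM and compared by edgeR 4.0.16 in R 4.3.3 (glmQLFit and glmQLFTest, a quasi-likelihood test), with Benjamini-Hochberg adjustment over the 14352 genes tested. Genes with Padj under 0.05 and a fold change over 1.5 were called. CPM are counts over the TMM-scaled library size. The SE was taken from the quasi F statistic. The procedure was tested on simulated data. Groups came from the treatment label, the labels name no batch and none was fitted, and animals are the replicates, numbered in the order of the samples. The animal codes in the titles differ in prefix between the groups, which the labels do not explain and which cannot be told apart from treatment. Alternatives were DESeq2 1.42.0, other scalings and filters, other thresholds and leaving out each library. The 10 genes and all lists were chosen with earlier results of these data known. Genes were named where they belonged to the 10 or, in each list, were called (up to 4 a direction by smallest p), and others are said to be chosen after their values were seen. Symbols were matched to RefSeq tables of GRCr8, from which the promoter coordinates come.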

Additional observations from a re-analysis of the deposited data

How the results depend on the processing

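Ccnd2 was called lower under every alternative except glmTreat (-0.80, Padj = 0.179), where 0 of the 10 genes were called, while 1 of 8 tested passed an unadjusted p under 0.05 in each direction. Without a filter 2 genes of the 10 were called, Top2a being added, and with a library left out from 1 to 2. The changed genes over the whole table numbered 453 by glmTreat and 2778 by adjusted p alone, against 1394. For the 8 lists, 11 genes were higher and 4 lower. The number higher was 19 with library size alone, a scaling that moved the median log2-Fold change of all genes from 0.02 to 0.13, 6 with a mean count of at least 50, 2 by glmTreat and from 7 to 12 with a library left out. The number lower was 2 with the mean count filter, 1 by glmTreat, 7 by adjusted p alone and from 2 to 3 with a library left out. The log2-Fold change of Ccnb1 reversed without control replicate 3 (-0.11) and IDPN-4wk replicate 1 (-0.15) and ranged from -0.15 to 0.28 with a library left out, and that of Cdkn1b reversed without control replicate 1 and ranged from -0.00032 to 0.20; neither gene passed the test in any fit. Fits in which Top2a was added with a library left out tested it through its IDPN-4wk counts alone. The cause of these differences was not tested, other than that the mean count filter removes genes with few counts. No paired analysis was possible because the labels give no replicate numbers, those used here being the order of the samples; letters that recur in the titles of both groups have no stated meaning and were not fitted as a block. Top2a and Ccna2 had at most 21 counts in a library, and for Mki67, Cdk1, Ccnb1 and Ccnd1 the intervals reach past the 1.5-fold threshold.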

Other observations

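Of the 24 cell cycle genes with a row and too few counts to be tested, 23 had a count in some library, from 3 to 65 in all. For 8 of the 23 every IDPN-4wk library was above every control in CPM (34.8%) and for 0 every one was below, where the shares were 6.68% and 6.16% over the 3249 untested genes of the table in the same range of counts. The other 15 overlapped between the groups. Among them, chosen after their values were seen, Birc5, a partner of Aurkb in the chromosomal passenger complex, had 7, 4 and 0 counts in control and 2, 7 and 2 counts in IDPN-4wk libraries. The spindle checkpoint kinase Bub1b had 7, 5 and 9 counts against 5, 4 and 1 counts, and the kinetochore protein Cenpf had 1, 1 and 4 counts against 8, 0 and 18 counts. The genes that follow are from the 8 and were also chosen after their values were seen. Spc25, a subunit of the kinetochore complex that binds spindle microtubules, had 1, 2 and 1 counts in control and 6, 16 and 9 counts in IDPN-4wk libraries. Aurkb, the kinase partner of Cdca8 in the chromosomal passenger complex, had 2, 3 and 1 counts against 7, 8 and 21 counts. Cenpa, the histone variant of centromeres, had 0, 0 and 1 counts against 4, 4 and 4 counts. Fitted without the filter, Spc25 had a Padj of 0.0493, Aurkb of 0.0674 and Cenpa of 0.154 in edgeR.

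The E2F activator E2f1 had 2, 2 and 0 counts in control and 6, 5 and 11 counts in IDPN-4wk libraries, another of the 8 (Padj = 0.163 in edgeR without the filter). E2f8, an E2F repressor of the late cycle, had 3, 0 and 0 counts in control and 0 counts in all IDPN-4wk libraries, and so did not follow the same pattern. E2f8 and the tested genes that follow were also chosen after their values were seen. Dlgap5, a spindle protein with enough counts to be tested, had 91, 68 and 104 counts in control and 152, 150 and 154 counts in IDPN-4wk libraries and missed the threshold (log2-Fold change 0.66, SE 0.22, Padj = 0.0567 in edgeR), which it passed without control replicate 3 (Padj = 0.0488) or IDPN-4wk replicate 2 (Padj = 0.0486) and in DESeq2 (Padj = 0.0407). The mitotic kinase Plk1 had 13, 13 and 9 counts against 29, 42 and 17 counts and also missed it (log2-Fold change 1.16, SE 0.41, Padj = 0.0740 in edgeR), except without IDPN-4wk replicate 3 (Padj = 0.0411), having been tested through its IDPN-4wk levels alone. Anln, of the same list, went the other way without a call, with 58, 20 and 42 counts against 12, 41 and 27 counts (log2-Fold change -0.76, SE 0.44, Padj = 0.257 in edgeR).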
